A study of Mus musculus with 9 samples.

Results

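Signals of 41 genes that make, modify, store and burn fatty acids were followed through 3 stages of mouse ovarian surface epithelial (MOSE) cells. The genes were chosen by function, with earlier results of these data known. A gene was measured where a probe set named it alone, under its symbol or an older alias. Of the 41 genes, 40 had such a probe set, 96 probe sets in all, and Acsl1 was not analysed here. Of these 40 genes, 31 had a probe set that passed a signal of 500 on 1 or more arrays and were tested, among 7952 tested genes of the series. The other 9 stayed below that level and are given by their signals. Cells came from C57BL6 mice and changed spontaneously in culture from an early, benign stage (MOSE-E) through an intermediate stage (MOSE-I) to a late, malignant stage (MOSE-L). All stages grew in DMEM with high glucose, 4% fetal bovine serum and insulin, transferrin and selenite, and the labels name no other treatment. The MOSE-E arrays came from passages 13, 14 and 15. Those of MOSE-I came from passages 63, 71 and 73 and those of MOSE-L from passages 136, 142 and 143, and replicates 1, 2 and 3 of each stage are named in this order. The sources describe cells passaged onward in culture and do not say whether the cultures of a stage were derived independently, so p-values measure the spread between these cultures.

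Fatty acids are built in the cytosol from acetyl-CoA, which is carboxylated to malonyl-CoA and joined into palmitate by fatty acid synthase. Elongases and desaturases then lengthen the chain and add double bonds, acyl-CoA synthetases activate it, and the glycerolipid enzymes place it in membranes or in the triglyceride of lipid droplets. Lipases free it again, and it is carried by the carnitine shuttle into mitochondria for beta-oxidation. SREBP-1, the product of Srebf1, drives the genes of synthesis and desaturation, and the peroxisome proliferator-activated receptors (PPARs) are lipid sensors that drive storage or oxidation.

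Promoter windows of 250 bases before and 50 bases after an annotated gene start were taken from RefSeq, build GRCm38.p6, for 34 of the 41 genes (46 windows). No window was at hand for Fads1, Scd1, Scd2, Dgat1, Dgat2, Fabp4 and Fabp5, so their promoters were not searched. They were searched on both strands for 5 motifs. The letters TCACNCCAC, 1 form of the sterol regulatory element that SREBP binds, were in 1 of the 46 windows, a window of Acsl1, and in 1.24% of the 32851 mouse windows of the same length. CCAAT was in 21 of the 46 and in 37.4% of all windows, GGGCGG, an Sp1 box, in 30 of the 46 and in 35.7% of all, and the E-box CACGTG in 5 of the 46 and in 7.15% of all. A pair of AGGTCA copies parted by 1 base, which PPARs bind, was in none of the 46 and in 0.0396% of all windows. The promoters below belong to Elovl5 and Plin2, which rose, to Mgll, which fell most, and to Hadhb, which was not called. Each runs from 250 bases before the start to 6 bases after it, and capitals mark CCAAT, its reverse complement ATTGG, and CACGTG.
Elovl5 (chr9:77917115-77917370, plus strand): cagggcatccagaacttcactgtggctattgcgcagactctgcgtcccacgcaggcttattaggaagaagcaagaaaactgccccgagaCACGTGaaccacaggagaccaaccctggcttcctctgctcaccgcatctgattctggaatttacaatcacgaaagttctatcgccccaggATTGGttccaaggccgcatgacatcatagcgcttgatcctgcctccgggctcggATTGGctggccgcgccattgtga
Plin2 (chr4:86670054-86670309, minus strand): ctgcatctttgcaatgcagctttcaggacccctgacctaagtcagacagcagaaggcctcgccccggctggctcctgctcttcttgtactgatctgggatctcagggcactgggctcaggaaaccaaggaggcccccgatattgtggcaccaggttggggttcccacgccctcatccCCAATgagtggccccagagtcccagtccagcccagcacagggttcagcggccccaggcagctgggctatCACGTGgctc
Mgll (chr6:88724162-88724417, plus strand): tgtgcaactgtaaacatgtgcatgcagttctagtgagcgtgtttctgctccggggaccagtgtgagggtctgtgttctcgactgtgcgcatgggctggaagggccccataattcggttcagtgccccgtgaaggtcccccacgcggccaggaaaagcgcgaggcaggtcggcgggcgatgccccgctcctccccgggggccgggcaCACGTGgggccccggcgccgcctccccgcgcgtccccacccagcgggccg
Hadhb (chr5:30155003-30155258, plus strand): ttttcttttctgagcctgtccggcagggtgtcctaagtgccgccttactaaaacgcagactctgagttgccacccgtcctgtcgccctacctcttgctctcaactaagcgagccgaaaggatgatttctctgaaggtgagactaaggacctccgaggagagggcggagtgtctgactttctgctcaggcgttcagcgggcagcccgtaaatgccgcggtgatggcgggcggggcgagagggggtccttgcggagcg
The Elovl5 window held CCAAT on the minus strand at -71 to -67 and at -17 to -13, counted from -1 just before the start, and CACGTG at -161 to -156. In Plin2, CACGTG ran over the start itself, from -4 to 2, and in Mgll it lay at -44 to -39. Hadha is read in the opposite direction from a start 273 bases away, so that its window and that of Hadhb overlap by 228 bases, and neither window held CCAAT or CACGTG. A match of letters is a description of these windows and shows no binding.

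The deposited values were MAS 5.0 signals, linear intensities without a unit in which every array was scaled to a trimmed mean of 500. Changes were taken on log2 of the signal plus 50, which understates the change of dim genes, and were tested in limma with Benjamini-Hochberg adjustment over all 13845 tested probe sets. A gene was called higher or lower where the adjusted p did not exceed 0.05 and the log2 change was 1 or more in size, on its probe set of highest mean signal. Within stages the arrays correlated at 0.889 to 0.986 (Pearson, log2 scale). MOSE-E replicate 1 and MOSE-I replicate 1 stood apart from the other arrays of their stage. The MOSE-L arrays correlated at 0.934 (replicates 1 and 2), 0.907 (2 and 3) and 0.889 (1 and 3), with replicate 3 the farthest. The ratio of the 3' to the 5' control probe sets of Actb, a sign of RNA quality, was 1.12 to 1.25 on the MOSE-E arrays, 1.31 to 1.38 in MOSE-I and 1.34 to 1.83 in MOSE-L arrays, highest on MOSE-L replicate 3, while that of Gapdh was 0.727 to 0.81 on all arrays. Of 10 markers of ovarian surface epithelium and mesothelium 9 were over 500, with summed signals of 68474 to 73401 in MOSE-E, 53637 to 69043 on MOSE-I arrays and 58133 to 74827 in MOSE-L. Of these markers Krt7, Krt8, Krt19 and Cdh2 were called lower in MOSE-L, and Gpm6a and Wt1 reached the adjusted p with higher signals and log2 changes of 0.98 and 0.94. The sums of 6 smooth muscle and fibroblast markers, of which Acta2, Tagln and Col1a1 were called lower in MOSE-L, were 42219.9 to 118809 in MOSE-E, 11829 to 38856 in MOSE-I cells and 4708 to 5718 in MOSE-L. Pdgfra of this list went the other way, with 185, 178 and 128 in MOSE-E and 536, 261 and 1221 in MOSE-L. It was not called (adjusted p = 0.109), and Myh11 and Des stayed below 500. None of the 4 adipocyte markers measured passed 500, their sums were 95.2 to 299 for MOSE-E, 244 to 311 for MOSE-I arrays and 212 to 389.6 for MOSE-L, and adiponectin (Adipoq), a defining one, had no signal over 61.1. The sums of 6 granulosa and steroidogenic markers were 531 to 598 at the early, 558 to 668 at the intermediate and 1047 to 1964 at the late stage. Of these Star alone was over 500, on MOSE-L replicate 3 only, and was called higher in MOSE-L than MOSE-E (adjusted p = 0.0106), with signals of 51.8, 45.2 and 9.88 on the MOSE-E and 308, 254 and 1402 on the MOSE-L arrays. Sums of 7 macrophage and leukocyte markers were 1043 to 1285 (MOSE-E), 1330.0 to 2388 (MOSE-I) and 1351 to 1951 (MOSE-L), with none called in MOSE-L against MOSE-E. Of these 7, 2 were over 500. Cd14 gave 586, 478 and 454 in MOSE-E, 746, 1046 and 1264 in MOSE-I and 484, 1130 and 832 in MOSE-L. Csf1r passed 500 in MOSE-I only, with signals up to 595. Cd68 stayed lower, at 140, 122 and 129 in MOSE-E and 169, 264 and 362 in MOSE-L. The leukocyte antigen Ptprc gave no signal over 51.9. No endothelial marker passed 500. The part of these markers and of RNA quality in the results was not tested, and in bulk RNA fewer cells that express a gene and less RNA per cell cannot be told apart.

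Most calls lay between the ends of the series, MOSE-L against MOSE-E. There the desaturases Scd1 and Fads1, the elongases Elovl5 and Elovl6, the acyl-CoA synthetases Acsl3 and Acsl4, the storage genes Lpin1, Dgat1 and Plin2 and the malic enzyme Me1 rose, and the lipase Mgll and the binding protein Fabp5 fell. They were 10 of the 31 tested members called higher, where 8.11% of all tested genes were, and 2 of the 31 called lower, where 7.49% were. The remaining 19 were not called, and 5 of them, Acss2, Scd2, Acsl5, Gpam and Cpt1a, reached the adjusted p with a log2 change under 1. Between MOSE-I and MOSE-E, Scd1 alone was called higher, where 2.29% of all tested genes were, and none was called lower, where 3.61% were (limma). At an unadjusted p under 0.05, 9 members were higher, where 17% of all tested genes were, and 0 lower, where 12.8% were. Between MOSE-L and MOSE-I, Fads3, Acsl4, Lpin1 and Plin2 were called higher, against 7.38% of all tested genes, and Mgll was called lower, against 6.04%. The median log2 change of the 31 members was 0.57 between MOSE-L and MOSE-E, 0.25 between MOSE-I and MOSE-E and 0.49 between MOSE-L and MOSE-I, beside 0.03, 0.03 and -0.02 for all tested genes. Of the 31, Lpin1 and Acss2 passed the level of 500 through MOSE-L arrays alone, Dgat1 and Cpt2 through MOSE-I and MOSE-L arrays, and Mgll through MOSE-E and MOSE-I arrays, so these 5 entered the test through stages in which they were high. With no such level required, 9 of the 40 measured members were called higher in MOSE-L than MOSE-E, all but Plin2 of the 10, where 3.89% of all genes were, and Mgll alone was called lower, where 3.41% were.

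By role, the median log2 change between MOSE-L and MOSE-E was 0.43 for the 5 tested genes of acetyl-CoA supply and synthesis, 0.96 for the 8 of elongation and desaturation, 1.55 for the 3 of activation, 1.11 for the 5 of glycerolipid synthesis and storage and 0.20 for the 6 of mitochondrial oxidation. Called higher were 1 of 5, 4 of 8, 2 of 3, 3 of 5 and 0 of 6 of them, beside 8.11% of all tested genes. With so few genes, 0 of 6 cannot be told apart from that share. The median was -2.13 for the 2 tested genes of lipolysis. The only tested gene of uptake and binding, Fabp5, changed by -2.28, and the only tested transcription factor, Srebf1, by 0.36. None of these was called higher, and Mgll and Fabp5 were called lower. These medians stand on a few genes each, and the differences between roles were not tested.

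**Figure D1:**
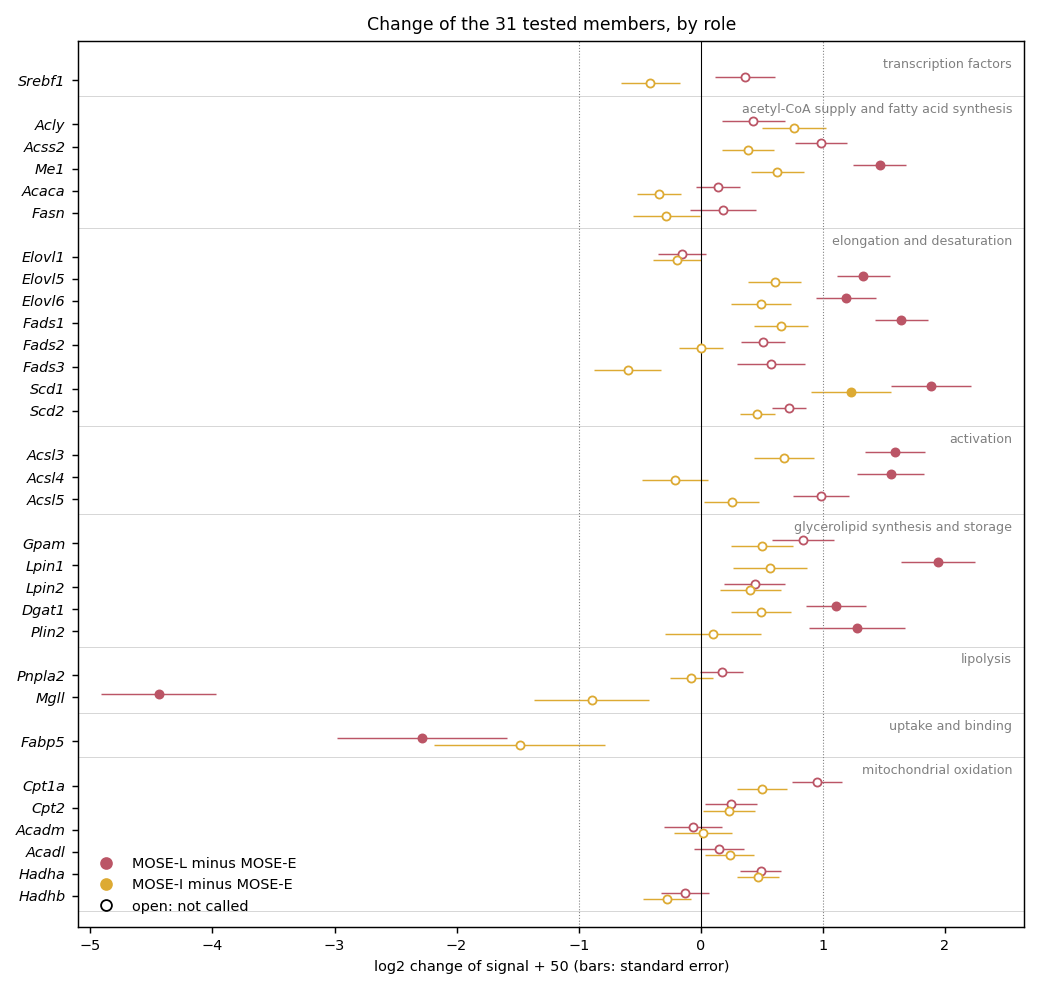
Log2 change of signal plus 50 (horizontal axis) of the 31 tested members in MOSE-L and in MOSE-I against MOSE-E, grouped by role, with standard errors as bars, filled points for called changes and dotted lines at a change of 1 in either direction. Filled MOSE-L points gather in elongation and desaturation (4 genes), activation (2) and storage (3), Mgll and Fabp5 lie far to the left, and the 6 oxidation genes have open points.

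Among the transcription factors Srebf1 was the only tested member. Its signals were 1305, 1829 and 1608 for MOSE-E replicates 1 to 3, 1374, 1116 and 1028 for those of MOSE-I and 1438, 2730.1 and 2108 for those of MOSE-L. The stages overlapped, apart from MOSE-L lying above MOSE-I on every array, and the log2 change between MOSE-L and MOSE-E was 0.36 ± 0.24 (SE, adjusted p = 0.295), with a 95% interval of -0.18 to 0.90. Against MOSE-I the MOSE-L level differed by 0.77 ± 0.24 (SE, adjusted p = 0.0394), past the adjusted p but under the minimum change of 1. The PPAR genes were dim throughout. Pparg, the adipocyte regulator, gave 74.5, 80.3 and 138 at the early, 18.2, 111 and 96.1 at the intermediate and 10.4, 14.0 and 24.1 at the late stage, so that MOSE-L lay below MOSE-E in signals that were low in every stage. Ppara, which drives oxidation genes in liver, stayed within 5.35 to 136 and Ppard, the widely expressed form, within 70.6 to 233, with overlapping stages.

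In the supply of acetyl-CoA and the synthesis of palmitate, Me1 rose and the chain-building enzymes did not pass the test. Me1, the cytosolic malic enzyme that makes NADPH for synthesis, had signals of 2059, 1498 and 1549 on the MOSE-E arrays, 2159.5, 3019 and 2791 on the MOSE-I arrays and 4441, 5816 and 4117 on the MOSE-L arrays. No stage overlapped another, and the ratio of mean signals, MOSE-L over MOSE-E, was 2.81 (log2 change 1.46 ± 0.21 SE, adjusted p = 0.00108). Fasn, fatty acid synthase itself, had signals of 2403, 3780.5 and 3032 for MOSE-E replicates 1 to 3, 3158, 1978 and 2428 for those of MOSE-I and 2725, 4896 and 3011 for those of MOSE-L, with overlapping stages and a log2 change of 0.18 ± 0.27 (SE, adjusted p = 0.654) and a 95% interval of -0.42 to 0.78. Acaca, the carboxylase that makes malonyl-CoA, had signals of 645, 803 and 662 at the early, 661, 482 and 495 at the intermediate and 762, 749 and 822 at the late stage, with a change of 0.14 ± 0.18 (SE, adjusted p = 0.591) and an interval of -0.26 to 0.54. Its partner Acacb, whose malonyl-CoA restrains the carnitine shuttle, gave no signal over 40.9 on any array. Acly, the citrate lyase that makes acetyl-CoA, was highest in MOSE-I, at 4440.0, 3284 and 2867 on the MOSE-E arrays, 5599.9, 5377 and 6917 on the MOSE-I arrays and 5327, 6023 and 3228 on the MOSE-L arrays, where no MOSE-I array overlapped MOSE-E but the change of 0.76 ± 0.26 (SE, adjusted p = 0.0803) missed the adjusted p. Acss2, which makes acetyl-CoA from acetate, had signals of 295, 209 and 236 for MOSE-E replicates 1 to 3, 358, 304 and 344 for those of MOSE-I and 488, 512 and 601 for those of MOSE-L, and reached the adjusted p with a log2 change of 0.98 ± 0.21 (SE, adjusted p = 0.00793), just under 1.

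Elongation and desaturation held 4 of the 10 members called higher. Scd1, the stearoyl-CoA desaturase that makes oleate, had signals of 7476, 3989 and 2793 at the early, 8786, 11108 and 11257 at the intermediate and 12561, 15792 and 21600.4 at the late stage. On this probe set every MOSE-I array lay above MOSE-E and every MOSE-L array above MOSE-I, although MOSE-E replicate 1 was far above the other MOSE-E arrays. Mean signals were 4752 ± 2433 (MOSE-E), 10384 ± 1386 (MOSE-I) and 16651 ± 4581 (MOSE-L), with the SD of 3 arrays, a 3.50-fold difference between MOSE-L and MOSE-E. The log2 changes were 1.88 ± 0.33 (SE, adjusted p = 0.00274) for MOSE-L and 1.23 ± 0.33 (SE, adjusted p = 0.0406) for MOSE-I. The other tested probe set of Scd1 was called in both as well, at 1.37 and 1.36, but its change between MOSE-L and MOSE-I was 0.01, against 0.65 on the brighter one. The MOSE-I call was lost in 6 of 9 fits that left out 1 array, those without MOSE-E replicate 2 (adjusted p = 0.162) or 3 (0.169), any MOSE-I array (0.0527, 0.112 and 0.138 for replicates 1 to 3) or MOSE-L replicate 2 (0.0529). Scd2, the desaturase of many tissues outside liver, had signals of 33661, 32728 and 27998 on the MOSE-E arrays, 45166, 43122 and 41583 on the MOSE-I arrays and 47600.2, 51564 and 56539 on the MOSE-L arrays. Its stages did not overlap either, but its change of 0.72 ± 0.14 (SE, adjusted p = 0.00515) stayed under 1.

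The fatty acid desaturases Fads1, Fads2 and Fads3 lie side by side on chromosome 19 and passed the test in different comparisons or not at all. Fads1, the delta-5 desaturase of arachidonate synthesis, had signals of 3966, 3092 and 2648 for MOSE-E replicates 1 to 3, 4681, 5416 and 5103 for those of MOSE-I and 9450.0, 8308 and 12927 for those of MOSE-L. No stages overlapped, and the ratio of MOSE-L to MOSE-E means was 3.16 (log2 change 1.64 ± 0.22 SE, adjusted p = 0.000602). Fads2, the delta-6 desaturase, had signals of 2781, 2879.8 and 3014 at the early, 3014, 2641 and 3051 at the intermediate and 4935, 4138 and 3476 at the late stage. MOSE-L lay above both other stages on every array, but with a change of 0.51 ± 0.18 (SE, adjusted p = 0.0584) Fads2 was not called. Fads3, whose product desaturates sphingoid bases, was lowest in MOSE-I, with 1724, 2382 and 1824 on the MOSE-E arrays, 1472, 1244 and 1127 on the MOSE-I arrays and 2548, 2122 and 4674 on the MOSE-L arrays. It was called between MOSE-L and MOSE-I (log2 change 1.17 ± 0.28 SE, adjusted p = 0.014) and had a change of 0.57 ± 0.28 (SE, adjusted p = 0.146) between MOSE-L and MOSE-E. MOSE-L replicate 3 was far above the other MOSE-L arrays, and without it the change from MOSE-I was 0.84 (adjusted p = 0.0221), under the minimum of 1. Without MOSE-I replicate 3 it was 1.09 (adjusted p = 0.0551).

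Elovl5, the elongase of polyunsaturated fatty acids whose promoter is shown above, had signals of 4427, 4036 and 4389.9 for MOSE-E replicates 1 to 3, 5215, 7613 and 7021 for those of MOSE-I and 8428, 11379 and 13277 for those of MOSE-L. The 3 stages followed each other without overlap, the MOSE-L mean was 2.57 times that of MOSE-E, and the log2 change was 1.33 ± 0.21 (SE, adjusted p = 0.00185). Elovl6, which lengthens palmitate to stearate, had signals of 1318, 776 and 883 at the early, 1724, 1191 and 1291 at the intermediate and 2183, 1877 and 2855 at the late stage. MOSE-L did not overlap the other stages, MOSE-E and MOSE-I did, and the log2 change was 1.19 ± 0.24 (SE, adjusted p = 0.00625). Elovl1, the elongase of saturated very long chains, stayed within 3406 to 4972, with a change of -0.16 ± 0.19 (SE, adjusted p = 0.582) and a 95% interval of -0.59 to 0.27.

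**Figure D2:**
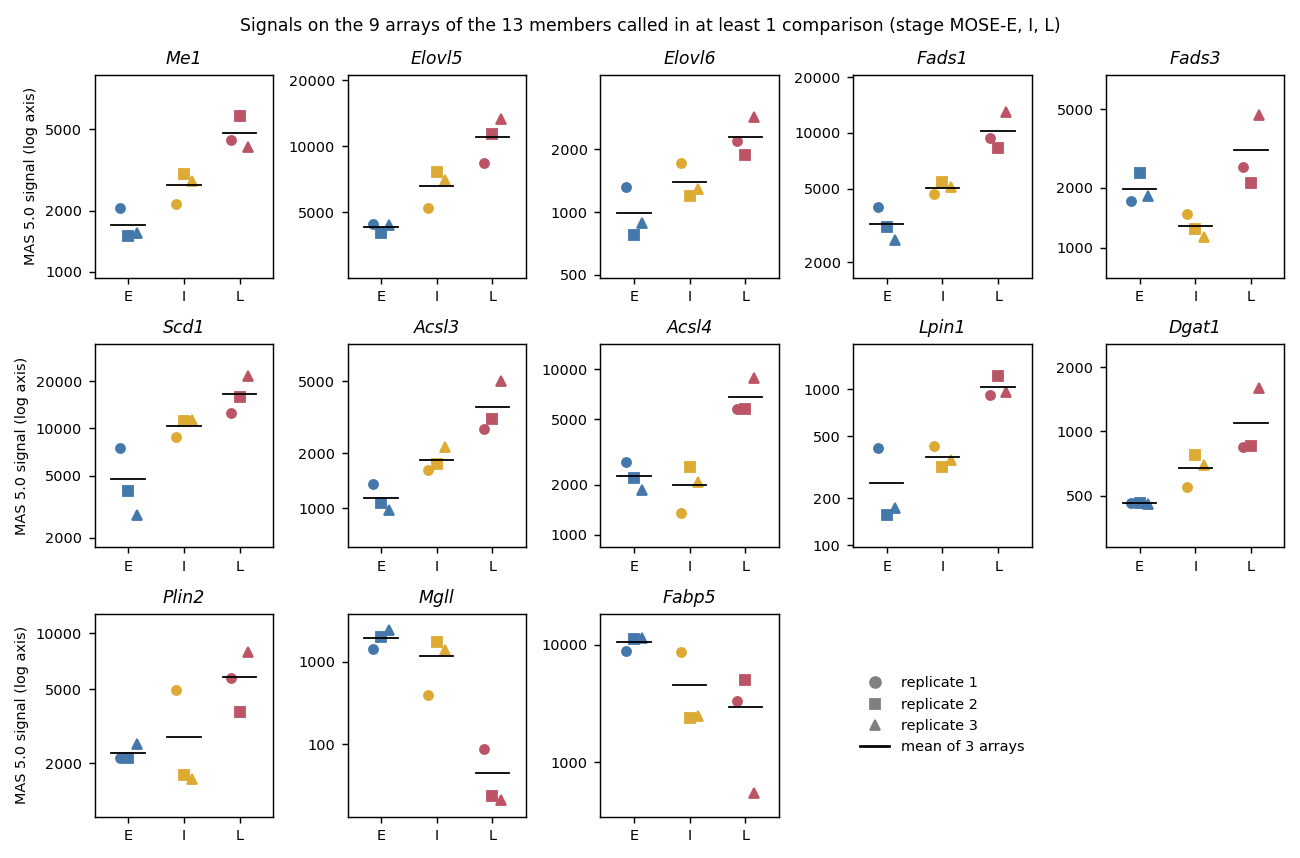
MAS 5.0 signals (log axis, a separate scale for each gene) on the 9 arrays of the 13 members called in at least 1 comparison, by stage, with a symbol for each replicate number and a bar at the mean of 3 arrays. On the probe sets plotted, Scd1, Fads1 and Elovl5 are higher at each later stage, Acsl4 and Lpin1 are higher in MOSE-L than in both other stages, Mgll falls to signals of 21.0 to 88.3 in MOSE-L, and in Plin2 and Fabp5 MOSE-I replicate 1 lies apart from the other MOSE-I arrays.

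The acyl-CoA synthetases, which bind a free fatty acid to coenzyme A before any further use, had higher signals on every MOSE-L array than on any MOSE-E array in all 3 tested cases, as did 23.1% of all tested genes, and 2 of the 3 were called. Acsl4, which prefers arachidonate, had signals of 2754, 2190.2 and 1858 on the MOSE-E arrays, 1345, 2557 and 2071 on the MOSE-I arrays and 5772, 5779 and 8878 on the MOSE-L arrays. MOSE-E and MOSE-I overlapped, MOSE-L lay above both, and the change was 1.55 ± 0.27 (SE, adjusted p = 0.00289) against MOSE-E and 1.77 ± 0.27 (SE, adjusted p = 0.00225) against MOSE-I. Acsl3, a synthetase of the endoplasmic reticulum and of lipid droplets, was higher at each later stage without overlap on the probe set used, from 1358, 1071 and 974 in MOSE-E over 1620.0, 1743 and 2168 in MOSE-I to 2729, 3100.3 and 5001 in MOSE-L (log2 change 1.59 ± 0.25 SE, adjusted p = 0.00148). MOSE-L replicate 3 was the highest array for both genes. Acsl5, a synthetase of mitochondria and endoplasmic reticulum, had signals of 3095, 3035 and 3018 for MOSE-E replicates 1 to 3, 4006, 3425 and 3511 for those of MOSE-I and 4159, 7059 and 7687 for those of MOSE-L, without overlap of MOSE-L with the other stages, and its change of 0.99 ± 0.23 (SE, adjusted p = 0.0112) fell short of 1.

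In glycerolipid synthesis and storage 3 of 5 tested members were called higher. Lpin1, the phosphatidate phosphatase that makes diacylglycerol, had signals of 421, 155 and 174 at the early, 429.8, 315 and 353 at the intermediate and 911, 1216 and 954 at the late stage. MOSE-L was above both other stages on every array, and MOSE-E replicate 1 was again higher than the other MOSE-E arrays. The mean rose 4.11-fold from MOSE-E to MOSE-L (log2 change 1.94 ± 0.30 SE, adjusted p = 0.00159) and 2.81-fold from MOSE-I (log2 change 1.37 ± 0.30 SE, adjusted p = 0.0113). Its relative Lpin2 was not called, with signals within 536 to 1228 and a change of 0.44 ± 0.25 (SE, adjusted p = 0.208). Dgat1, which adds the last chain of a triglyceride, had signals of 461, 462 and 458 on the MOSE-E arrays, 550.0, 774 and 698 on the MOSE-I arrays and 843, 853 and 1602 on the MOSE-L arrays. The stages did not overlap and the change was 1.11 ± 0.25 (SE, adjusted p = 0.00897), but without MOSE-L replicate 3, the highest array, it was 0.82 (adjusted p = 0.0149) and under 1. With 200 added to the signal in place of 50 it was 0.93. Dgat2, the other enzyme of that step, stayed below the level for testing, at 157 to 264 on its brightest probe set.

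Plin2, the coat protein of lipid droplets in cells other than adipocytes, had signals of 2146, 2143 and 2524 for MOSE-E replicates 1 to 3, 4937, 1739 and 1649 for those of MOSE-I and 5763, 3759 and 7956 for those of MOSE-L. All MOSE-L arrays were above MOSE-E, but MOSE-I replicate 1, at passage 63, lay within the MOSE-L range while the other MOSE-I arrays were below MOSE-E. The log2 change was 1.28 ± 0.39 (SE, adjusted p = 0.0353) against MOSE-E and 1.18 ± 0.39 (SE, adjusted p = 0.0465) against MOSE-I. The call against MOSE-E was lost when MOSE-E replicate 1, 2 or 3 or MOSE-L replicate 1 or 3 was left out, with adjusted p-values of 0.0683 to 0.104 and log2 changes of 1.02 to 1.36. The call against MOSE-I was lost when any MOSE-E array, replicate 2 or 3 of MOSE-I, or replicate 1 or 3 of MOSE-L was left out (adjusted p = 0.0599 to 0.155). Gpam, the acyltransferase that starts glycerolipid synthesis, reached the adjusted p with a change under 1, at 1622, 2231 and 2006 at the early, 1932, 3773 and 2895 at the intermediate and 3022, 3379 and 4209 at the late stage (log2 change 0.84 ± 0.25 SE, adjusted p = 0.0332).

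Lipolysis held the largest log2 change among the tested members. Mgll, the monoglyceride lipase that takes the last fatty acid off a glyceride and also degrades the endocannabinoid arachidonoylglycerol, had signals of 1427, 1999 and 2384 on the MOSE-E arrays, 397, 1748 and 1373 on the MOSE-I arrays and 88.3, 23.2 and 21.0 on the MOSE-L arrays. No MOSE-L array came near the other stages, and MOSE-I replicate 1 lay between them. Its mean was 1937 ± 482 (MOSE-E), 1173 ± 697 (MOSE-I) and 44.2 ± 38.2 (MOSE-L), with the SD of 3 arrays. On the log2 scale the MOSE-L level fell by 4.44 (SE 0.47, adjusted p = 0.000155) from MOSE-E and by 3.55 (SE 0.47, adjusted p = 0.000925) from MOSE-I. With 2 of the 3 MOSE-L signals under the added 50, its size follows that value, and the change from MOSE-E was -5.71 with 1 added and -3.11 with 200 added. All 3 tested probe sets of Mgll were called lower, with log2 changes of -4.44, -3.78 and -3.43. MOSE-I replicate 1 was also the lowest MOSE-I array for the smooth muscle genes Acta2 (6559, 24746 and 14825 on the MOSE-I arrays) and Tagln (289.6, 5033 and 1917), which were both called lower in MOSE-L than MOSE-E (adjusted p = 0.000105 and 0.000182). On the MOSE-L arrays Acta2 (1515, 780 and 323) followed the order of Mgll and Tagln (6.59, 111 and 28.5) did not. A link between these genes and Mgll was not tested. The other lipases among the members were not called or not tested. Pnpla2, the adipose triglyceride lipase that takes off the first chain, stayed within 459 to 633 (log2 change 0.17 ± 0.18 SE, adjusted p = 0.497, 95% interval -0.22 to 0.56), and Lipe, the hormone-sensitive lipase, gave at most 268.

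Of the genes of uptake and binding only Fabp5 was bright enough for a test. Fabp5, the epidermal fatty acid binding protein, had signals of 8956, 11310.2 and 11557 for MOSE-E replicates 1 to 3, 8719, 2388 and 2485 for those of MOSE-I and 3336, 5003 and 550.3 for those of MOSE-L. All MOSE-L arrays lay below all MOSE-E arrays. The MOSE-I arrays were spread widely, with replicate 1 just below the MOSE-E signals and replicates 2 and 3 at the level of MOSE-L. The level fell by 2.28 (SE 0.70, adjusted p = 0.0348) on the log2 scale between MOSE-E and MOSE-L. MOSE-L replicate 3 was the lowest array, and without it the change was -1.36 (adjusted p = 0.0696). The call was also lost without MOSE-E replicate 1, 2 or 3, with adjusted p-values of 0.0627, 0.0931 and 0.099. Fabp3, the heart binding protein, stayed within 74.7 to 293, Fabp4, the adipocyte binding protein, within 22.8 to 129 and Cd36, a fatty acid transporter, within 28.7 to 52.4 on their brightest probe sets.

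None of the 6 genes of mitochondrial oxidation was called in any comparison by limma on the probe set used. At an unadjusted p under 0.05, 2 of the 6 were higher in MOSE-L than MOSE-E, 2 in MOSE-I than MOSE-E and 1 in MOSE-L than MOSE-I, beside 21.4%, 17% and 20.3% of all tested genes. None was lower, beside 19.3%, 12.8% and 22.4%. The t-test of the study's methods, without adjustment, called Cpt1a alone among the 6, higher in MOSE-L than MOSE-E, where it called 6.41% of all tested genes. Cpt1a, the carnitine palmitoyltransferase that controls entry into mitochondria, came nearest, with signals of 1099, 894 and 1009 at the early, 1419, 1407 and 1463 at the intermediate and 2306, 2299 and 1452 at the late stage. On this probe set MOSE-L and MOSE-I lay above MOSE-E on every array, MOSE-L replicate 3 was at the MOSE-I level, and the log2 change of 0.95 ± 0.20 (SE, adjusted p = 0.00774) fell short of 1. It passed 1 and was called in the fits without MOSE-E replicate 1 and without MOSE-L replicate 3. Hadha, a subunit of the trifunctional protein, had signals of 1227, 1351 and 1303 on the MOSE-E arrays, 1610.2, 1758 and 2089 on the MOSE-I arrays and 1935, 1929.6 and 1653 on the MOSE-L arrays. They were higher on every MOSE-I and MOSE-L array than in MOSE-E, with a change of 0.49 ± 0.17 (SE, adjusted p = 0.0554). Hadhb, the other subunit, whose promoter is shown above, gave 4838, 3617 and 4202 for MOSE-E replicates 1 to 3, 3697, 3421 and 3252 for those of MOSE-I and 4755, 3323 and 3556 for those of MOSE-L, with overlapping stages and a change of -0.13 ± 0.20 (SE, adjusted p = 0.658). The acyl-CoA dehydrogenases Acadm and Acadl, for medium and long chains, stayed within 1297 to 2687 and 2329 to 3485. Their 95% intervals for MOSE-L against MOSE-E were -0.59 to 0.46 and -0.30 to 0.60, and that of Cpt2, the inner carnitine palmitoyltransferase, was -0.22 to 0.71.

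**Figure D3:**
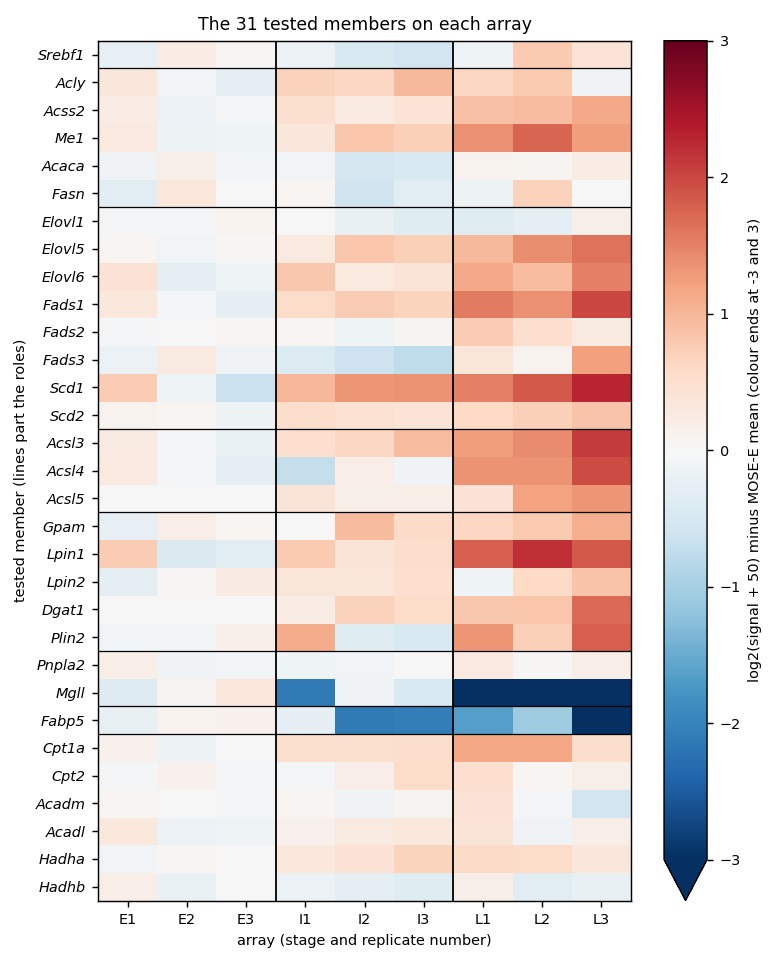
Log2 of signal plus 50 minus the MOSE-E mean, by colour, for the 31 tested members (rows, in order of role) on each of the 9 arrays (columns, stage and replicate number). The MOSE-L columns are red for the members called higher in elongation and desaturation, activation and storage. They are pale for Elovl1, Fads2 and Lpin2 and for the oxidation genes apart from Cpt1a. Mgll is dark blue in all MOSE-L columns, and columns E1, I1 and L3 differ from the other columns of their stage in several rows.

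Of the 10 members called higher in MOSE-L, MOSE-L replicate 3 was the highest MOSE-L array in 8 and MOSE-E replicate 1 the highest MOSE-E array in 8. Leaving out MOSE-L replicate 3 left 9 members called higher, 8 of them among the 10 (Plin2 and Dgat1 were lost and Cpt1a was gained), and leaving out MOSE-E replicate 1 left 11, 9 of them among the 10 (Plin2 was lost, Acss2 and Cpt1a were gained). With the array farthest from its stage left out in all 3 stages, an alternative added after the data were seen, 10 were called higher, 8 of them among the 10, and Mgll and Fabp5 were called lower.

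Of the 31 tested members 17 had more than 1 tested probe set, which read different stretches of a transcript. They gave like changes for Me1 (1.46 and 1.65), Elovl5 (1.33 and 1.38), Lpin1 (1.94 and 2.16), Acsl4 (1.55, 1.80 and 1.83) and Fabp5 (-2.28 and -2.20) between MOSE-L and MOSE-E. For Fads1 the brighter probe set gave 1.64 and the other 0.23, which was not called, and their mean of 0.93 was under 1. For Elovl6 the brighter probe set gave 1.19 and was called, and the other gave 0.93 and was not. For Scd2 the probe set of highest signal was not called and another was, with changes of 0.72, 0.82 and 1.19. The Fads3 probe sets disagreed in MOSE-I, with changes from MOSE-E of -1.70, -0.60 and -0.52, of which the first was called lower, but each was called higher in MOSE-L than in MOSE-I (1.17, 1.26 and 2.29). For Cpt1a, changes between MOSE-L and MOSE-I were 0.45, 0.85 and 1.10, and the last was called. Those between MOSE-I and MOSE-E were 0.50, -0.01 and -0.47 in the same order, so the level of MOSE-I against MOSE-E turned with the probe set.

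**Figure D4:**
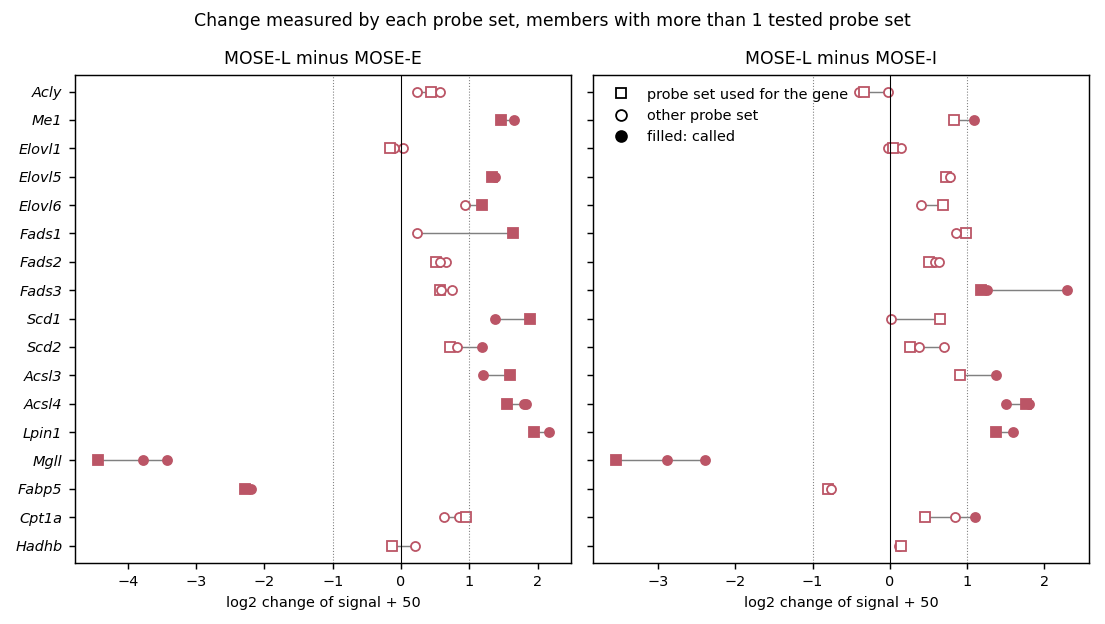
Log2 change of signal plus 50 measured by each tested probe set of the 17 members with more than 1, for MOSE-L against MOSE-E (left) and MOSE-L against MOSE-I (right), with squares for the probe set used for the gene and filled symbols for called changes. The symbols of Me1, Elovl5 and Fabp5 lie close together, those of Fads1 lie at 0.23 and 1.64 on the left, and those of Mgll are all filled and below 0 in both panels.

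The stages can be set side by side for the 10 members called higher, with the caution that MOSE-L and MOSE-I were compared with the same MOSE-E arrays. These 10 were picked for a MOSE-L level above MOSE-E, so only the place of MOSE-I was free. How often MOSE-I lay between in other genes called higher was not counted. On the probe set used for each gene, mean signals were lowest in MOSE-E and highest in MOSE-L in 9 of them, with MOSE-I between, and in Acsl4 MOSE-I was lowest (a mean and SD of 1991 ± 610.0, against 2267 ± 453 before and 6809.8 ± 1791 after). The MOSE-I changes ran from -0.21 (Acsl4) to 1.23 (Scd1), and only that of Scd1 was called. For Fads1 they were 0.66 in MOSE-I and 1.64 in MOSE-L, for Elovl5 0.60 and 1.33, for Me1 0.63 and 1.46, and for Acsl3 0.68 and 1.59. The direction of the MOSE-I change from MOSE-E depended on the probe set in 3 genes. The other tested probe set gave a MOSE-I change of -0.63 for Fads1 and of -0.18 for Acsl3, and the other 2 of Acsl4 gave 0.04 and 0.29, none of them called. For Scd1 the other tested probe set put MOSE-I level with MOSE-L, with a change of 0.01 between them, against 0.65 on the probe set used. Whether the step from MOSE-E to MOSE-I and that from MOSE-I to MOSE-L differed in size was not tested.

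A list of 113 other genes of these pathways, also chosen by function with earlier results of these data known, had 65 tested genes. In MOSE-L against MOSE-E 12 of them were called higher and 3 lower. In MOSE-I against MOSE-E 0 were called higher (14 at an unadjusted p under 0.05, where 17% of all tested genes were) and 1 lower. In MOSE-L against MOSE-I 8 were called higher and 3 lower. The shares of all tested genes called are those given above. The median log2 change of the 65 was 0.47 between MOSE-L and MOSE-E. Among 10 tested genes listed under control of synthesis, which included the coactivator Ppargc1a, 3 were called higher in MOSE-L against MOSE-E and none lower. Insig1 and Insig2, which hold SREBP in the endoplasmic reticulum when sterols are plentiful, changed by 2.00 ± 0.40 (SE, adjusted p = 0.00539) and 1.70 ± 0.20 (SE, adjusted p = 0.00031), with Insig1 signals of 3582, 1171 and 1010.4 at the early, 4051, 2894 and 3081 at the intermediate and 8279.9, 6527 and 5419.9 at the late stage. Here too MOSE-E replicate 1 was above the other MOSE-E arrays. Ppargc1a, a coactivator of oxidation genes, gave 8.12, 8.46 and 8.28 on the MOSE-E arrays, 10.4, 61.5 and 57.1 on the MOSE-I arrays and 535, 721 and 444 on the MOSE-L arrays and was called higher in MOSE-L against both. It passed the level of 500 through MOSE-L alone, where it was high, and the size of its change follows the added 50, as every MOSE-E signal was under that value. Mbtps1, the protease that releases SREBP, was called between MOSE-L and MOSE-I (1.04 ± 0.24 SE, adjusted p = 0.0132) and not between MOSE-L and MOSE-E (0.83 ± 0.24 SE, adjusted p = 0.0283).

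Of 9 tested genes of acetyl-CoA supply and synthesis Idh1, a cytosolic source of NADPH (1.56 ± 0.38 SE, adjusted p = 0.0146), and Aacs, which activates acetoacetate (1.00 ± 0.26 SE, adjusted p = 0.0171), were called higher and Pdha1, a subunit of pyruvate dehydrogenase, was called lower, with signals of 6159, 6093 and 6555 for MOSE-E replicates 1 to 3, 6391, 5875 and 5537 for those of MOSE-I and 3582, 2753 and 2222 for those of MOSE-L, an adjusted p of 0.00251 and a log2 change of -1.15. Of 9 of elongation and desaturation 2 were called higher and 1 lower. Hacd3 and Tecr, which carry out the dehydration and the last reduction of the elongation cycle, changed by 1.32 ± 0.21 (SE, adjusted p = 0.00176) and 1.12 ± 0.18 (SE, adjusted p = 0.00194). Hacd1, a dehydratase best known from muscle, changed by -2.17 ± 0.32 (SE, adjusted p = 0.00107), from 4261, 8005 and 11546 in MOSE-E to 1487, 1558 and 1735 in MOSE-L. Of 4 tested genes of activation and uptake Lpl and Vldlr were called higher. Lpl, the lipase that frees fatty acids from lipoproteins, had signals of 4314, 5613 and 5685 at the early, 835, 2469 and 2398 at the intermediate and 9378, 12622 and 22908 at the late stage. It was lower in MOSE-I than in MOSE-E (-1.57 ± 0.41 SE, adjusted p = 0.04) and higher in MOSE-L than in both (1.42 ± 0.41 SE, adjusted p = 0.0289 against MOSE-E), with MOSE-L replicate 3 highest. Vldlr, a lipoprotein receptor that works with Lpl, changed by 1.75 ± 0.47 (SE, adjusted p = 0.0217).

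Of 11 tested genes of glycerolipid synthesis and storage none was called higher in MOSE-L against MOSE-E (4 at an unadjusted p under 0.05, where 21.4% of all tested genes were) and Mogat2, a monoacylglycerol acyltransferase of intestine, was called lower, with MOSE-E signals of 219, 766 and 969 and MOSE-L signals of 98.8, 23.3 and 118. It was over 500 in MOSE-E alone. Agpat2, which makes phosphatidate, was highest in MOSE-I, with 609.5, 504 and 477 on the MOSE-E arrays, 1051, 985 and 1159.7 on the MOSE-I arrays and 313, 312 and 266 on the MOSE-L arrays, and was called lower in MOSE-L against MOSE-I (-1.68 ± 0.18 SE, adjusted p = 0.000219), having passed 500 through MOSE-E and MOSE-I arrays. Neither of the 2 tested genes of lipolysis was called, with 1 higher and 1 lower at an unadjusted p under 0.05 in MOSE-L against MOSE-E, beside 21.4% and 19.3% of all tested genes. Of 20 tested genes listed under mitochondrial and peroxisomal oxidation 3 were called higher in MOSE-L against MOSE-E and none lower. Of these 3, Ech1 alone is itself an oxidation enzyme. Acot1, a cytosolic acyl-CoA thioesterase, changed by 2.09 ± 0.45 (SE, adjusted p = 0.00761), Angptl4, a secreted inhibitor of Lpl, by 1.86 ± 0.51 (SE, adjusted p = 0.0229), and Ech1, an auxiliary enzyme for unsaturated chains, by 1.04 ± 0.23 (SE, adjusted p = 0.00822). Acot1 had signals of 305, 146 and 184 for MOSE-E replicates 1 to 3, 482, 203 and 199 for those of MOSE-I and 2142, 746 and 672 for those of MOSE-L, highest on MOSE-L replicate 1. It passed 500 through MOSE-L arrays alone, and with no level required its adjusted p was 0.0136.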

How the data were processed

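The authors hybridised cRNA made from total RNA of 9 MOSE cultures, 3 per stage, to Affymetrix Mouse 430 2.0 arrays. The deposited intensities are linear MAS 5.0 signals per probe set that the authors scaled to a trimmed mean of 500. Detection calls were not used, and no library depth applies, so the number of arrays limits precision. Of 45101 probe sets, 64 controls were left out, and 13845 passed a signal of 500 on some array. A linear model with a mean for each stage was fitted to log2 of signal plus 50 in limma 3.58.1 under R 4.3.3, with variances that follow the mean signal. The 95% intervals use its 6 residual and 4.90 prior degrees of freedom. Probe sets were named from the platform's annotation, updated by gene ID to GRCm38.p6, and only those naming 1 gene were used. Acsl1 was not analysed here. The same fit was tested on simulated data. Each member called in a comparison, and the brightest member of a role without one, is given with all signals, and of the other genes of the pathway those called, up to 4 per role. Some further members are given in full. Members and lists were chosen with earlier results of these data known. Alternatives were other added values, normalizations, filters, thresholds and variances, the methods' t-test on these signals, the replicate number as a block, the mean over probe sets, and leaving out arrays.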

Additional observations from a re-analysis of the deposited data

How the results depend on the processing

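No log2 change of a called member changed sign in 450 values over 25 alternatives, and 384 of the 450 kept the call. The 10 members called higher in MOSE-L against MOSE-E became 15 with no minimum fold and 12 under quantile normalization. They became 0 under the methods' t-test (equal variance) with Benjamini-Hochberg adjustment, and 9 to 11 when 1 array was left out. The 2 called lower became 1 without a filter or at an adjusted p of 0.01, 0 under the adjusted methods' t-test and 1 to 2 when 1 array was left out. In MOSE-I against MOSE-E the 1 called higher, Scd1, became 0 under quantile normalization, without a filter, at an adjusted p of 0.01, under the adjusted methods' t-test and with the replicate block, and 0 to 1 when 1 array was left out. The 0 called lower became 1, Fabp5, with only the groups compared and without the 3 arrays farthest from their stage, and 0 to 1 when 1 array was left out. In MOSE-L against MOSE-I the 4 called higher became 1 at an adjusted p of 0.01, 10 with no minimum fold, 0 under the adjusted methods' t-test, 2 without MOSE-L replicate 3 and 7 without MOSE-L replicate 1. The 1 called lower, Mgll, became 0 under the adjusted methods' t-test and stayed 1 when any 1 array was left out. Without adjustment the methods' t-test gave 12, 2, 1, 0, 3 and 1 for these 6 counts in turn, beside 6.41%, 7.07%, 3.07%, 4.09%, 5.17% and 5.45% of all tested genes. The cause of these shifts was not tested. The replicate numbers name cultures of different passages and were not used to pair them across stages. Deviations of same-numbered arrays from their stage means correlated at -0.11 to 0.41, highest for replicate 1 of MOSE-E and MOSE-L. Those of arrays with different numbers correlated at -0.49 to 0.24. Whether cultures of like number shared an effect was not tested, and the replicate block changed no other count. The 3 arrays per stage and the 32.4% of signals under the added 50 limit what could be called.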
